A study of Mus musculus with 435 samples.

Results

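Liver expression of 31 cytochrome P450 genes was described in 435 mice that lack a working leptin receptor. The genes were all those of the expression table whose symbol starts with Cyp and a digit, apart from 12 P450 genes set aside by name, out of 43 P450 genes and 13379 genes in all. The choice went by gene name, but earlier results of these data were known when it was made. Each of the 31 was measured by 1 probe set, and all 31 matched an Entrez gene of RefSeq under the same symbol. By role they comprised 17 genes of family 2, 7 fatty acid hydroxylases of family 4, 3 enzymes of steroid hormone synthesis, the xenobiotic enzymes Cyp1a1 and Cyp3a11, the vitamin D hydroxylase Cyp2r1, and the orphan enzyme Cyp20a1. No gene of sterol or bile acid synthesis was among them.

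Cytochrome P450 enzymes are haem proteins, mostly of the endoplasmic reticulum, that insert an oxygen atom into drugs, steroids, fatty acids and other lipids with electrons passed on by partner reductases. In liver, families 1 to 3 handle most foreign compounds, and many members of families 2 and 4 also oxidise arachidonic acid and other fatty acids. Their transcription is set in part by nuclear receptors and the Ah receptor, and in mice several members differ between the sexes.

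The mice were F2 animals: DBA/2J females were crossed with C57BL/6 males that carried 1 copy of the db mutation, the carrier F1 mice were interbred, and db/db offspring ate chow. All groups were db/db, so there was no lean group, and age, sex and quantitative traits were the contrasts. Of the mice studied at 5 weeks 118 were female and 101 male, and of those at 12 weeks 110 were female and 106 male. Each mouse had 1 array, and since no label names a litter, mice were treated as independent. Median plasma glucose was 224 mg/dl in 5-week females, 240 in 5-week males, 460.5 in 12-week females and 599.5 in 12-week males. Median plasma insulin was 50.0, 45.4, 128 and 61.05 µIU/ml in the same order. The median fat fraction of the liver by nuclear magnetic resonance (NMR) was 0.156, 0.148, 0.203 and 0.226.

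Values are log2 intensities after RMA, which puts all arrays on a common scale. Array medians lay between 5.56 and 5.70, and no pair of arrays was identical. The array names carry a batch code that no label explains. Every group was present in batches 1 to 4, of 99, 138, 110 and 86 arrays, but the ages were uneven over them. Batch 1 held 15 females and 13 males of 12 weeks beside 35 and 36 of 5 weeks. Batch 2 held 43 females and 52 males of 12 weeks beside 23 and 20 of 5 weeks. Batches 5 and 6 were 1 female of 12 weeks apiece, whose values the batch term absorbs. By 4 X-linked genes, 8 arrays lay nearer to the other sex and were kept under their labels. Without them the call of the Cyp2c50 glucose slope at 5 weeks was lost (adjusted p = 0.058), and no other member call was. The 7 hepatocyte markers measured, of 10 listed, had a group median of 14.29 to 14.43 for their mean log2 value, near the top of the table. No adipocyte marker was measured. The 2 pancreatic acinar markers had group medians of 7.16 to 7.24 and reached 11.28 in 1 12-week male.

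The members covered most of the range of the array. Cyp3a11, Cyp2e1, Cyp2c29, Cyp2f2, Cyp2c50, Cyp2d26, Cyp2d10 and Cyp2a12 formed a set of 8 at or above the 99th percentile of mean level over all genes. Cyp11a1, Cyp11b2, Cyp2d34, Cyp2j11, Cyp2s1 and Cyp4f39, 6 genes, lay below the 30th percentile, where detection was not assessed. Groups explained a median of 17.1% of the variance of a member, against 3.64% over all genes, and the medians of the residual standard deviation (SD) were 0.176 and 0.175 log2 units. The spread was uneven. Cyp2c23 had a residual SD of 0.758 (99.96th percentile of all genes), whereas the abundant Cyp2e1 and Cyp3a11 had residual SDs of 0.056 and 0.057 (both at the 0.13th percentile). Values near the top of the scale can be compressed, and saturation was not assessed.

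Cyp4f genes lie close together in the genome, and 4 of the 5 measured here, all but the dim Cyp4f39, had called differences with age or traits. Their upstream sequences are shown because these neighbours moved in opposite directions with age in males. Each is the 250 bases before the most upstream RefSeq start in GRCm38.p6, read 5′ to 3′ on the gene's strand. Capitals mark the only matches among 7 motifs searched on both strands.
Cyp4f14 (chr17:32917357-32917606, minus strand): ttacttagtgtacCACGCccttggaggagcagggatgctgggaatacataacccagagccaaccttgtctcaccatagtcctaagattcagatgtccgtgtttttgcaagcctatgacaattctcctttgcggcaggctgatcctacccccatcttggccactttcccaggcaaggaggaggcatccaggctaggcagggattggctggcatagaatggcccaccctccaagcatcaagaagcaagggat
Cyp4f16 (chr17:32536307-32536556, plus strand): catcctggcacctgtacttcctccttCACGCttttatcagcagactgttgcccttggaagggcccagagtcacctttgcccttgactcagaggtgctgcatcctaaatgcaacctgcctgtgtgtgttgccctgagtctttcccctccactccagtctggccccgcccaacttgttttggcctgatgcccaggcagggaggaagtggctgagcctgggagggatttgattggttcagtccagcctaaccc
Cyp4f15 (chr17:32685409-32685658, plus strand): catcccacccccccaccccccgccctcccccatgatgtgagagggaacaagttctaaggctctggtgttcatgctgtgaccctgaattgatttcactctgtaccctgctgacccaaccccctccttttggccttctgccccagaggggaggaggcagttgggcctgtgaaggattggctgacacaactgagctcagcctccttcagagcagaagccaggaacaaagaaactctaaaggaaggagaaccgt
Cyp4f13 (chr17:32947362-32947611, minus strand): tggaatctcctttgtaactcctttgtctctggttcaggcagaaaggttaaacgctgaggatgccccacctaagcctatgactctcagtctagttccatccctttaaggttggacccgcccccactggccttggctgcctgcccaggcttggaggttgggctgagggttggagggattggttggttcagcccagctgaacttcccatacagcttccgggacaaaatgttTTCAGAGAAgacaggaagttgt
The Ah receptor core GCGTG occurred, as its reverse complement, in the windows of Cyp4f14 and Cyp4f16, starting 237 and 224 bases before the start. The STAT element TTCNNNGAA occurred 22 bases before the start of Cyp4f13, and the window of Cyp4f15 held none of the 7. RefSeq windows, here from 250 bases before to 50 after the start, were found for 24 of the 31 members. GCGTG was in 8 of these 24 and in 32.5% of all 27025 gene windows. TTCNNNGAA was in 3 and in 8.42%, the TATA box TATAAA in 8 and in 14.2%, and the nuclear receptor hexamer AGGTCA in 4 and in 16.0%. The HNF4 element CAAAGTCCA was in 1, Cyp3a11 (0.474% of all windows), the HNF1 element GTTAAT in 1, Cyp2d26 (7.22%), and the C/EBP palindrome TTGCGCAA in none (0.189%). No test was made on these matches.

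Between 5 and 12 weeks 6 of the P450 genes fell in both sexes, led by Cyp4f14, and 9 rose in both, led by Cyp2d12. In females 19 of 31 members (61.3%) were called, 12 higher and 7 lower at 12 weeks, where 46.2% of all genes were called (22.1% higher, 24.2% lower). In males 21 (67.7%) were called, 14 higher and 7 lower, where 46.3% of all genes were (22.3% higher, 24% lower). A call is an adjusted p under 0.05 in limma with Benjamini-Hochberg adjustment over 13379 genes. Of the called members, 9 were higher in both sexes, 6 were lower in both, and Cyp2j5 was higher in females and lower in males. The median absolute difference was 0.061 log2 units for members and 0.050 for all genes in females, and 0.091 and 0.053 in males. Signs matched in all 4 large batches for 18 of the 19 calls in females and 18 of the 21 in males. Group ranges overlapped for all 31 members in both sexes. In bulk tissue, fewer cells of a type and less RNA per cell cannot be told apart.

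**Figure D1:**
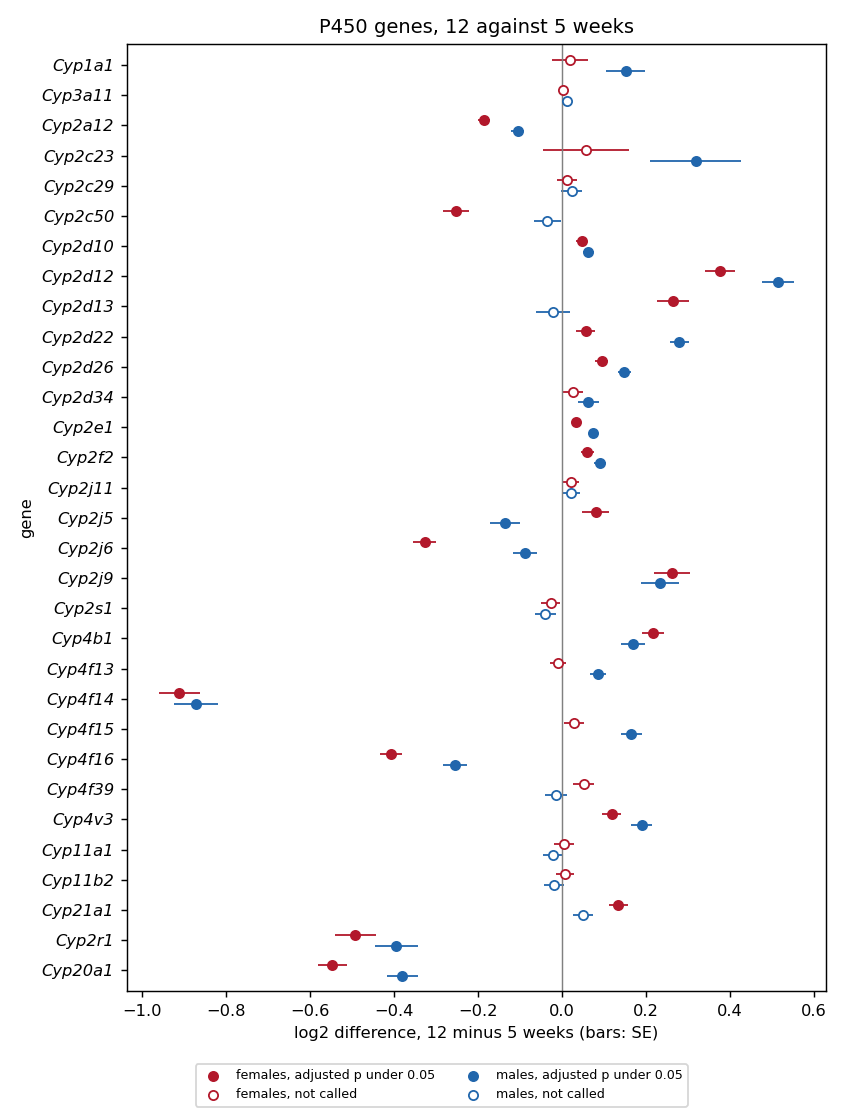
Log2 difference between 12 and 5 weeks (x axis) for each of the 31 P450 genes (y axis, by role), in females (red) and males (blue), with standard errors. Filled points are called. Cyp4f14 stands furthest to the left in both sexes at -0.91 and -0.87, and Cyp2d12 furthest to the right.

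Among the fatty acid hydroxylases, Cyp4f14, which hydroxylates leukotriene B4 and fatty acids, fell most. Its log2 value in 5-week females had a lowest of 10.77, a median of 11.47 and a highest of 11.99, and in 12-week females 9.59, 10.57 and 11.40. In males the same 3 values were 10.47, 11.56 and 12.10 at 5 weeks and 8.83, 10.69 and 11.69 at 12 weeks. All 110 of the 12-week females and 105 of the 106 12-week males lay below the 5-week median of their sex, and 80 and 30 lay below the whole 5-week range. The difference was -0.91 ± 0.05 (standard error, SE; adjusted p = 8.1e-54) in females and -0.87 ± 0.05 (adjusted p = 7e-46) in males, a level 1.88-fold and 1.83-fold lower by limma. Within batches 1 to 4 it lay between -1.18 and -0.63 in females and between -0.99 and -0.74 in males. Groups explained 59.9% of its variance.

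Cyp4f16, a related enzyme of the same cluster, also fell in both sexes. Its lowest, median and highest values were 5.67, 6.13 and 6.68 in 5-week females and 5.07, 5.74 and 6.14 in 12-week females, a difference of -0.41 ± 0.03 (adjusted p = 1.6e-40, limma). In males they were 5.49, 5.94 and 6.55 at 5 weeks and 5.15, 5.71 and 6.23 at 12 weeks, a difference of -0.26 ± 0.03 (adjusted p = 1e-16, limma). Ranges overlapped, with 39 of 110 females and 9 of 106 males at 12 weeks below the whole 5-week range. Cyp4f13 and Cyp4f15 did not share this direction. Cyp4f15 was 0.17 ± 0.03 higher at 12 weeks in males (adjusted p = 1.1e-09) and Cyp4f13 0.086 ± 0.020 higher (adjusted p = 7.9e-05), both by limma. In females their differences were 0.028 and -0.009 and were not called. Cyp4v3, the mouse counterpart of the fatty acid hydroxylase altered in human Bietti crystalline dystrophy, rose by 0.12 ± 0.02 in females and 0.19 ± 0.02 in males. Cyp4b1, which oxidises fatty acids and some lung toxins, rose by 0.22 ± 0.03 and 0.17 ± 0.03. The dim Cyp4f39 was called in neither sex, at 0.052 ± 0.024 and -0.014 ± 0.026.

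Cyp20a1, an orphan enzyme, and Cyp2r1, a vitamin D hydroxylase, fell in both sexes. Cyp20a1 had a lowest, median and highest value of 6.33, 7.15 and 7.61 in 5-week females and 6.09, 6.59 and 7.15 in 12-week females. In males these were 6.16, 6.92 and 7.38, then 5.78, 6.59 and 7.08. No 12-week female, and 5 of 106 12-week males, exceeded the 5-week median of their sex, although ranges overlapped. The differences were -0.55 ± 0.04 in females (adjusted p = 9.5e-42, limma) and -0.38 ± 0.04 in males (adjusted p = 1e-20, limma). Cyp2r1 had 7.28, 8.26 and 8.995 in 5-week females and 6.82, 7.73 and 8.42 in 12-week females, with a difference of -0.49 ± 0.05 (adjusted p = 7.4e-21, limma). In males it had 7.18, 8.20 and 8.90, then 6.77, 7.90 and 8.64, with a difference of -0.39 ± 0.05 (adjusted p = 7.7e-13, limma). Its probe set differed more between mice than most, with a residual SD at the 95.4th percentile.

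Family 2, which holds drug and steroid hydroxylases and arachidonic acid epoxygenases, moved both ways, with 9 members called higher and 3 lower in each sex. Cyp2d12 rose most. In 5-week females its lowest, median and highest values were 5.12, 5.65 and 6.20, and in 12-week females 5.27, 5.97 and 7.15. In males they were 5.11, 5.68 and 6.22, then 5.57, 6.18 and 6.91. Its differences were 0.38 ± 0.04 in females (adjusted p = 8.1e-22, limma) and 0.52 ± 0.04 in males (adjusted p = 3.2e-33, limma), with overlapping ranges and 100 of 110 females and 102 of 106 males above the 5-week median. Cyp2j9 rose by 0.26 ± 0.04 and 0.23 ± 0.04. Cyp2d22, a mouse relative of the human drug-metabolising enzyme CYP2D6, rose by 0.056 ± 0.022 in females and 0.28 ± 0.02 in males. Smaller rises were called in both sexes for Cyp2d26, Cyp2d10, Cyp2e1 and Cyp2f2. Cyp2d26 rose by 0.095 ± 0.015 and 0.15 ± 0.02, and Cyp2f2, which oxidises naphthalene, by 0.061 ± 0.015 and 0.091 ± 0.015. Cyp2e1, which oxidises ethanol and acetone, changed by only 0.034 ± 0.008 in females and 0.075 ± 0.008 in males.

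Of the family 2 genes that fell, Cyp2j6 changed by -0.33 ± 0.03 in females and -0.088 ± 0.029 in males, where the limma call was lost without batch 2 (-0.033, adjusted p = 0.50). Cyp2a12, a hydroxylase of testosterone and bile acids, fell by 0.19 ± 0.01 and 0.10 ± 0.02. The epoxygenase Cyp2c50 fell by 0.25 ± 0.03 in females alone among the calls, at -0.034 ± 0.032 in males. Cyp2d13 rose by 0.27 ± 0.04 in females and differed by -0.021 ± 0.040, not called, in males, and Cyp2j5 changed by 0.080 ± 0.033 and -0.14 ± 0.03. Cyp2c23, an epoxygenase, had a lowest, median and highest value of 8.93, 11.17 and 12.40 in 5-week males and 9.33, 11.56 and 12.73 in 12-week males, largely overlapping. It was 0.32 ± 0.11 higher in 12-week males (adjusted p = 0.0092, limma), but the batches gave 0.03, 0.65, -0.04 and 0.50, and the call was lost without batch 2 (0.18, adjusted p = 0.30) or batch 4 (0.26, adjusted p = 0.061). Cyp2d34 in males, Cyp2j5 and Cyp2d22 in females and Cyp1a1 in males also lost their age call without at least 1 batch. The dim Cyp2j11 and Cyp2s1 were called in no group comparison. In xenobiotic families 1 and 3, Cyp3a11, the main inducible drug hydroxylase of mouse liver, differed by 0.003 ± 0.008 in females and 0.012 ± 0.009 in males and was not called. Cyp1a1, the classical target of the Ah receptor, was 0.15 ± 0.05 higher in 12-week males, with batch values of 0.38, 0.14, -0.03 and 0.22.

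The 3 enzymes of steroid hormone synthesis, known from adrenal and gonad, were measured at mean levels of 4.18 (Cyp11a1, which starts steroid synthesis from cholesterol), 4.29 (Cyp11b2, aldosterone synthase) and 5.16 (Cyp21a1, a steroid hydroxylase). Of 5 adrenal cortex markers 4 were measured, with a group median of 4.37 to 4.40. Cyp21a1 was 0.13 ± 0.02 higher in 12-week females (adjusted p = 4.6e-08, limma), and the other two were called in no group comparison.

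**Figure D2:**
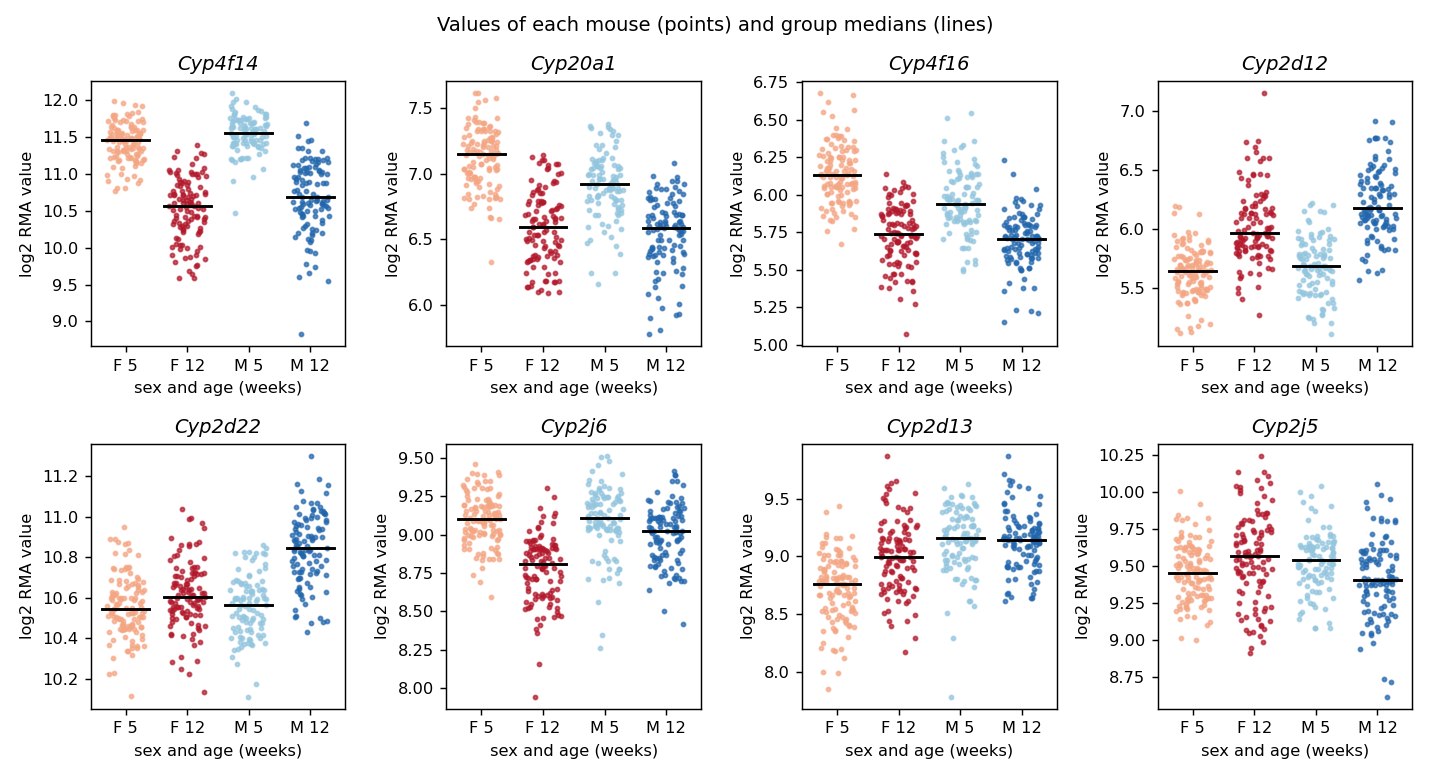
Log2 value (y axis) of 8 P450 genes in each of 435 mice (points), by sex and age (x axis; F, female; M, male; weeks), with group medians as lines. Cyp4f14, Cyp20a1 and Cyp4f16 are lower at 12 weeks in both sexes, Cyp2d22 stands highest in 12-week males, and Cyp2j6 is lowest in 12-week females. The y axes differ between panels.

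Males and females differed in 12 of the P450 genes at 5 weeks and in 18 at 12 weeks, when most called members were higher in males. At 5 weeks 12 members (38.7%) were called, 7 higher in males and 5 lower, where 24.9% of all genes were called (10.5% higher, 14.4% lower). At 12 weeks 18 members (58.1%) were called, 16 higher in males and 2 lower, where 18.1% of all genes were called, 8.97% higher and 9.08% lower. The median difference at 12 weeks was 0.069 for members and 0.0001 for all genes. Signs matched in all 4 large batches for all 12 and all 18 calls, and group ranges overlapped for all 31 members at both ages. Cyp2d10, Cyp2d13, Cyp2f2, Cyp3a11, Cyp4f13 and Cyp4v3 were higher in males at both ages, and Cyp2d26 was lower at both.

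At 5 weeks the leading gene was Cyp2d13, which RefSeq lists as a transcribed pseudogene of the Cyp2d cluster. Its lowest, median and highest values were 7.86, 8.76 and 9.44 in females and 7.78, 9.16 and 9.63 in males, and 93 of 101 males lay above the female median. The difference was 0.41 ± 0.04 (adjusted p = 9.2e-22, limma), a 1.33-fold higher level. At 12 weeks it was 0.13 ± 0.04, and that call was lost without batch 2 (0.11, adjusted p = 0.18). Cyp4v3 was 0.12 ± 0.02 higher in 5-week males and 0.19 ± 0.02 higher in 12-week males. Lower in 5-week males were Cyp20a1 (-0.21 ± 0.04), Cyp4f16 (-0.19 ± 0.03), Cyp1a1 (-0.13 ± 0.04), Cyp2d26 (-0.12 ± 0.02) and Cyp2a12 (-0.053 ± 0.014). At 5 weeks the calls of Cyp1a1, Cyp2f2, Cyp21a1, Cyp4f13 and Cyp2a12 were each lost without at least 1 batch: batch 1 for Cyp1a1, Cyp2f2, Cyp21a1 and Cyp2a12, batch 2 for Cyp1a1, Cyp2f2 and Cyp4f13, batch 3 for Cyp21a1, and batch 4 for all but Cyp2a12.

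At 12 weeks Cyp2d22 and Cyp3a11 had the most males above the female median, 96 and 95 of 106. For each of them 11 males lay above the whole female range, and for Cyp4f13 23 did. Cyp2d22 had a lowest, median and highest value of 10.14, 10.60 and 11.04 in females and 10.43, 10.85 and 11.30 in males. The difference was 0.23 ± 0.02 (adjusted p = 1.1e-19, limma), and it lay between 0.18 and 0.26 within batches. Cyp2j6 had 7.94, 8.81 and 9.31 in females and 8.41, 9.03 and 9.41 in males, a difference of 0.23 ± 0.03 (adjusted p = 2e-13, limma). Cyp2c50 was 0.18 ± 0.03 higher, Cyp2d12 0.18 ± 0.04, Cyp4f15 and Cyp4f13 each 0.15 ± 0.02, and Cyp4f14 0.16 ± 0.05, a call lost without batch 1 (adjusted p = 0.081). Cyp2c23 had the largest estimate, 0.42 ± 0.10 (adjusted p = 0.00091, limma), with batch values between 0.16 and 0.51 and no call without batch 2 (0.33, adjusted p = 0.11). Lower in 12-week males was Cyp2j5, an epoxygenase abundant in kidney, at -0.15 ± 0.03 (adjusted p = 0.00017, limma), whose batch values ran from -0.20 to -0.04. Cyp2d26 was also lower, at -0.068 ± 0.015. Cyp2c29, an abundant epoxygenase, was 0.069 ± 0.025 higher in 12-week males, and this call was lost without batch 1, 3 or 4.

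**Figure D3:**
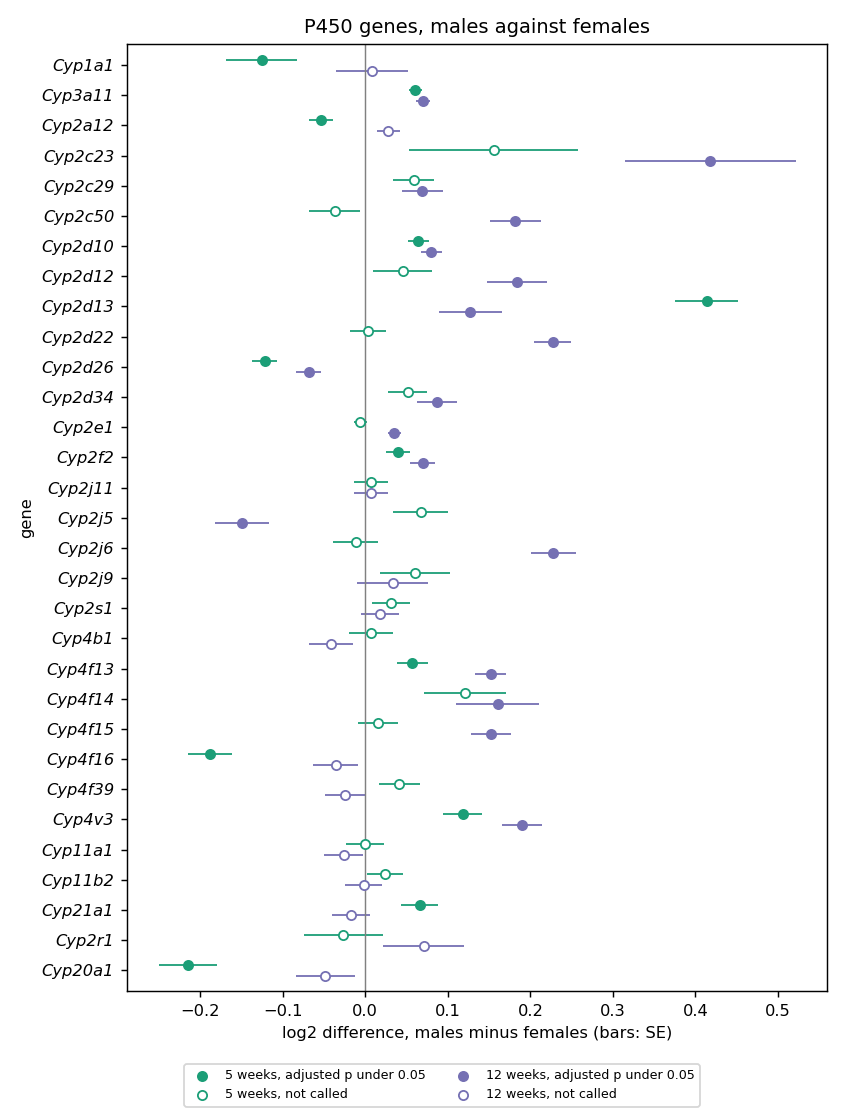
Log2 difference between males and females (x axis) for each of the 31 P450 genes (y axis, by role) at 5 weeks (green) and 12 weeks (purple), with standard errors. Filled points are called. Most filled purple points lie right of 0, Cyp2d13 stands out at 5 weeks at 0.41, and Cyp2j5 lies left of 0 at 12 weeks only.

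The age difference itself was tested between the sexes as the difference in males minus that in females. It was called for 11 members (35.5%), 9 positive and 2 negative, where 8.56% of all genes were called (5.74% positive, 2.82% negative). The positive calls were Cyp2j6 (0.24 ± 0.04), Cyp2d22 (0.22 ± 0.03), Cyp2c50 (0.22 ± 0.04), Cyp20a1 (0.17 ± 0.05), Cyp4f16 (0.15 ± 0.04), Cyp4f15 (0.14 ± 0.03), Cyp4f13 (0.095 ± 0.027), Cyp2a12 (0.082 ± 0.020) and Cyp2e1 (0.041 ± 0.011). Cyp2j6, Cyp20a1, Cyp4f16 and Cyp2a12 fell in both sexes and less in males. Cyp2d22 and Cyp2e1 rose in both and more in males. The negative calls were Cyp2d13 (-0.29 ± 0.05), which rose in females alone among the calls, and Cyp2j5 (-0.22 ± 0.05), which had a positive age call in females and a negative one in males. Without batch 1, 5 members were called, and Cyp20a1, Cyp2a12, Cyp2e1, Cyp4f13, Cyp4f15 and Cyp4f16 were not. Without batch 2 the calls of Cyp20a1 and Cyp4f13 were lost, and without batch 4 that of Cyp2e1. Cyp2d22 had batch values of 0.21 to 0.23. The fall of Cyp4f14 gave no call for a difference between the sexes.

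Within an age, expression was set against plasma insulin, glucose, total cholesterol and the liver fat fraction. Each slope gives the change in log2 expression that goes with 1 SD of the log2 trait, with sex and batch as covariates. The 4 traits were measured in the same mice, so their slopes are not independent of each other and are given side by side. Few slopes on insulin or liver fat were called at 5 weeks, and more at 12 weeks. On insulin 2 members (6.45%) were called at 5 weeks, 1 each way, where 2.45% of all genes were (1.02% positive, 1.43% negative). At 12 weeks 16 (51.6%) were called, 2 positive and 14 negative, where 27.5% of all genes were (13.4% and 14.1%). On liver fat 2 members (6.45%) were called at 5 weeks, both negative, where 5.6% of all genes were (3.06% and 2.54%). At 12 weeks 13 (41.9%) were called, 1 positive and 12 negative, where 26% of all genes were (13% each way). The 12-week calls on both traits were thus mostly of genes lower in mice with more insulin or fat. On glucose 5 members (16.1%) were called at 5 weeks, 2 positive and 3 negative, where 8.12% of all genes were (4.51% and 3.61%). At 12 weeks 12 (38.7%) were called, all positive, where 12.9% of all genes were (7.41% and 5.5%), and only 6 of the 12 kept their sign in all 4 large batches. On cholesterol 9 members (29.0%) were called at 5 weeks, 4 positive and 5 negative, where 18% of all genes were (10.2% and 7.84%). At 12 weeks 9 were called, 1 positive and 8 negative, where 13.6% of all genes were (6.07% and 7.5%). Batch 2 held the most 12-week mice, and without it the 12-week counts were 7 for insulin, 8 for liver fat, 2 for glucose and 5 for cholesterol.

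**Figure D4:**
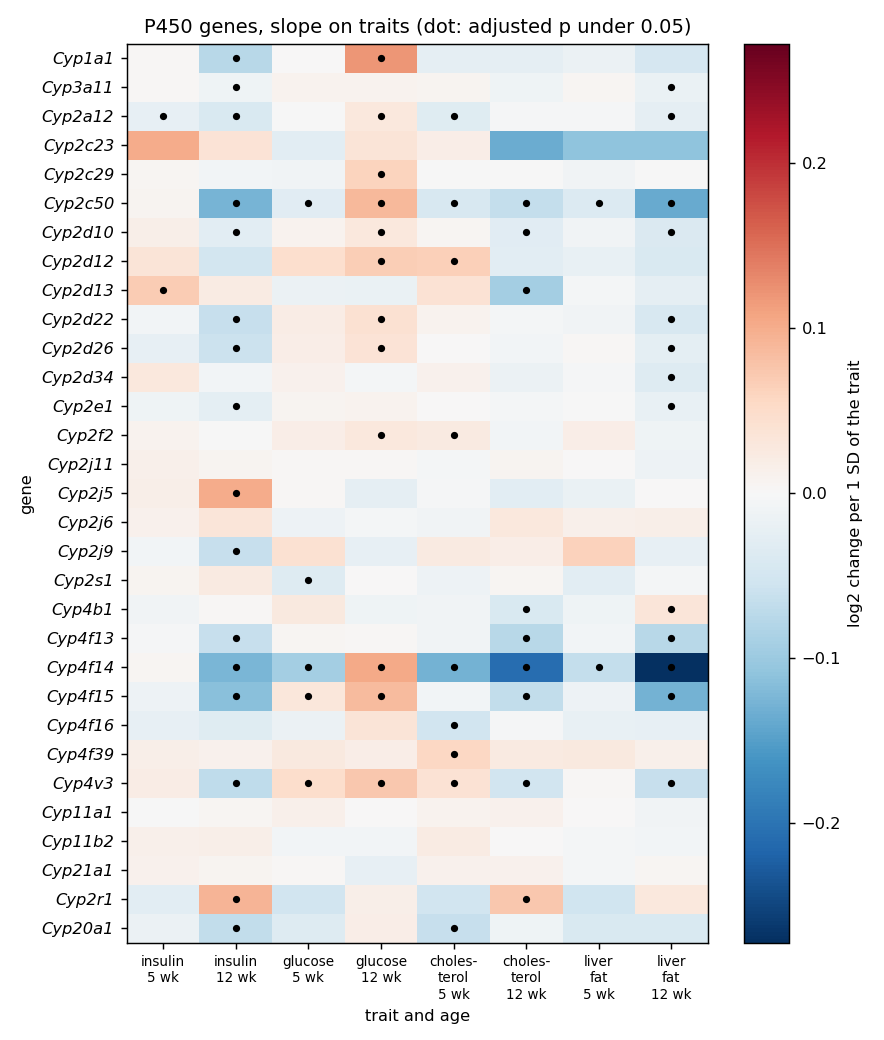
Slope of each of the 31 P450 genes (rows, by role) on 4 traits at 5 and 12 weeks (columns). Colour gives the log2 change per 1 SD of the trait and a dot marks a call. The darkest cell is Cyp4f14 on liver fat at 12 weeks at -0.27, and called 12-week slopes are mostly negative on insulin, cholesterol and liver fat and positive on glucose.

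Cyp4f14 had the steepest slope on liver fat. In 12-week males its lowest, median and highest values were 10.08, 11.06 and 11.69 in the 35 mice with the least liver fat and 8.83, 10.46 and 11.22 in the 35 with the most. In 12-week females they were 10.22, 10.82 and 11.32 in the 36 with the least and 9.59, 10.16 and 11.06 in the 36 with the most. The lower values lay with the fattier livers in both sexes, with overlapping ranges. The slope at 12 weeks was -0.27 ± 0.02 per SD (adjusted p = 1.6e-20, limma), and -0.37, -0.27, -0.24 and -0.31 in batches 1 to 4. At 5 weeks it was -0.066 ± 0.017 (adjusted p = 0.0064, limma), a call lost without batch 3, when 0 members were called and 7 had an unadjusted p under 0.05. The difference between the ages was -0.20 ± 0.03 (adjusted p = 2.8e-08, limma). On cholesterol its slope was -0.13 ± 0.02 at 5 weeks and -0.21 ± 0.03 at 12 weeks. On glucose it was -0.092 ± 0.017 at 5 weeks and 0.10 ± 0.03 at 12 weeks, when batches gave -0.15, 0.17, 0.12 and -0.07. On insulin it was -0.13 ± 0.03 at 12 weeks.

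Cyp4f15, Cyp4f13 and Cyp4v3 had called negative slopes on insulin, cholesterol and liver fat at 12 weeks. Cyp4f15 had a median of 11.33 in the 35 12-week males with the least liver fat and 11.06 in the 35 with the most, and of 11.16 and 10.88 in the matching 36 and 36 females. Its slopes were -0.13 ± 0.01 on liver fat (adjusted p = 3.6e-21), -0.11 ± 0.01 on insulin (adjusted p = 8.2e-16) and -0.066 ± 0.014 on cholesterol, against 0.086 ± 0.013 on glucose, by limma. Cyp4f13 had -0.076 ± 0.009 on liver fat, -0.063 ± 0.010 on insulin and -0.075 ± 0.009 on cholesterol. Cyp4v3 had -0.064 ± 0.012, -0.070 ± 0.012 and -0.052 ± 0.013 in that order, and 0.073 ± 0.012 on glucose. Cyp4v3 slopes on glucose and cholesterol were already called at 5 weeks, and there both were positive (0.047 ± 0.011 and 0.039 ± 0.011). The glucose call of Cyp4v3 at 5 weeks was lost without batch 4. Cyp4b1 went against this pattern: it was the only member called higher with liver fat at 12 weeks (0.034 ± 0.013, adjusted p = 0.044, limma), and it was lower with cholesterol (-0.042 ± 0.013). Its liver fat call was lost with no batch term, with plate, when normalized again, and without batch 2 (0.026, adjusted p = 0.39) or batch 4 (0.025, adjusted p = 0.24). Cyp4f16 had no called slope on any trait at 12 weeks.

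In family 2, Cyp2c50 paralleled these genes. In 12-week females its lowest, median and highest values were 13.11, 14.08 and 14.42 in the 36 mice with the least insulin and 12.94, 13.69 and 14.09 in the 36 with the most. In 12-week males they were 13.60, 14.14 and 14.38, then 12.95, 13.92 and 14.32, in 35 mice each. Its 12-week slopes were -0.13 ± 0.02 on insulin (adjusted p = 7.6e-10, limma), -0.14 ± 0.02 on liver fat (adjusted p = 8.4e-12, limma), -0.065 ± 0.020 on cholesterol and 0.088 ± 0.019 on glucose. Batch values for insulin ran from -0.14 to -0.09. Cyp2d22 (-0.062 ± 0.011) and Cyp2d26 (-0.059 ± 0.007) also fell with insulin, as did Cyp2j9, Cyp2a12, Cyp2d10 and Cyp2e1 by smaller amounts. Against this direction stood Cyp2j5 and Cyp2r1. Cyp2j5 was higher with insulin at 12 weeks (0.10 ± 0.02, adjusted p = 1.7e-06, limma; 0.05 to 0.12 within batches), and its median was 9.46 in the 36 females with the least insulin and 9.67 in the 36 with the most. In 12-week males the Cyp2j5 medians were 9.39 and 9.54, in 35 mice each. Cyp2r1 had a slope of 0.092 ± 0.026 (adjusted p = 0.0032, limma) and medians of 7.61 and 8.004 in the 35 males with the least and the most insulin. In 12-week females its medians lay closer together, at 7.80 and 7.92 in 36 mice each. Cyp2d13 was lower with cholesterol at 12 weeks (-0.093 ± 0.018). Cyp2c29 was higher with glucose at 12 weeks (0.062 ± 0.013), the dim Cyp2d34 lower with liver fat (-0.034 ± 0.013), and the dim Cyp2s1 lower with glucose at 5 weeks (-0.034 ± 0.012). Of the 3 negative glucose calls at 5 weeks, only 1 negative call was left with plate, with ranked traits, or without batch 1 or batch 4. Cyp2j11 had no called slope.

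Cyp1a1 had the steepest called slope on glucose at 12 weeks, 0.12 ± 0.02 (adjusted p = 2.5e-05, limma), with batch values from 0.05 to 0.15. Its median was 6.04 in the 35 12-week males with the lowest glucose and 6.22 in the 35 with the highest, and 6.06 and 6.20 in 36 and 36 females, with overlapping ranges. On insulin its slope was -0.076 ± 0.024 at 12 weeks, a call lost with traits as ranks (adjusted p = 0.070) and without batch 1 (adjusted p = 0.074) or batch 2 (adjusted p = 0.072). Cyp3a11 had slopes of only -0.018 ± 0.004 on liver fat and -0.011 ± 0.005 on insulin. The 3 steroid synthesis enzymes had no called slope on any of the 4 traits at either age, and Cyp20a1 was lower with insulin at 12 weeks (-0.067 ± 0.019) and with cholesterol at 5 weeks (-0.062 ± 0.016).

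Slopes were also compared between the ages in 1 fit. On insulin the difference, 12 minus 5 weeks, was called for 12 members (38.7%), 2 positive and 10 negative, where 13.2% of all genes were called (6.96% and 6.27%). On liver fat it was called for 11 (35.5%), all negative, where 12.6% were (6.65% and 5.99%). On cholesterol it was called for 10 (32.3%), 2 positive and 8 negative, where 9.19% were (3.33% and 5.86%). On glucose it was called for 6 (19.4%), all positive, where 6.58% were (3.29% and 3.3%). Without batch 2 these 4 counts were 3, 6, 5 and 2. On insulin the most negative was Cyp2c50 (-0.13 ± 0.02) and the most positive Cyp2r1 (0.13 ± 0.03). Without batch 2 the 3 insulin calls left were all negative, so the call of Cyp2r1 was lost. On cholesterol, Cyp2r1 (0.14 ± 0.03) and Cyp2d13 (-0.13 ± 0.03) differed most.

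Once group and batch were removed, some pairs of members still varied together across the 435 mice. Pearson correlations of residuals were computed for all 465 pairs, with permutation p-values adjusted over the 465 by Benjamini-Hochberg. Of these 204 were called, 152 positive and 52 negative, with a median r of 0.045. No such count was made for pairs of other genes, so whether P450 genes stand out was not tested. The 60 pairs that share a chromosome in RefSeq's table held 31 of the calls. The closest pair was Cyp2d22 and Cyp4f15 (r = 0.57, Spearman's rho = 0.55, permutation p = 1e-05, adjusted p = 6.2e-05), which lie on different chromosomes. It gave r = 0.56 without the 2 mice farthest from the median, and between 0.51 and 0.63 within each of the 4 groups. Next came Cyp4f13 with Cyp4f14 (r = 0.54, rho = 0.51), Cyp2c50 with Cyp4f15 (r = 0.53, rho = 0.46) and Cyp2d10 with Cyp4v3 (r = 0.51, rho = 0.49). Cyp4f15 correlated with Cyp4f13 at 0.49 and with Cyp4f14 at 0.47. Some pooled values stood for unlike groups. Cyp2c50 with Cyp4f15 gave 0.16 in 5-week females and 0.09 in 5-week males, against 0.70 and 0.69 at 12 weeks. Cyp4f14 with Cyp4f15 gave 0.16 and 0.05 at 5 weeks, against 0.53 and 0.68 at 12 weeks. Cyp4f13 with Cyp4f14 gave 0.38 and 0.36, then 0.72 and 0.55, and Cyp2d10 with Cyp4v3 gave 0.29 and 0.63, then 0.54 and 0.51. These differences between groups were not tested. The p of each of these was the smallest that the 100000 permutations can give. Within batch 1, 2, 3 or 4 alone, 58, 108, 63 and 68 pairs were called. Mice of 1 intercross can share litters, which no label names, so residuals need not be independent.

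Some pairs moved oppositely. The most negative was Cyp2c23 with Cyp2c29, a pair of the Cyp2c subfamily that shares chromosome 19 (r = -0.37, rho = -0.39, permutation p = 1e-05). It was -0.36 without the 2 farthest mice, and -0.44, -0.24, -0.38 and -0.47 in batches 1 to 4. Within groups it lay between -0.42 and -0.34. Cyp2j5 correlated at -0.36 with Cyp2d26 and at -0.28 with Cyp2a12, and Cyp2d26 at -0.24 with Cyp2j6. Within groups these ran from -0.51 to -0.12, from -0.44 to -0.05 and from -0.36 to -0.08. Cyp2c23 also had an uneven distribution, with 54 mice between 9.5 and 10.0, 35 between 10.0 and 10.5, and 85 and 128 in the next bins of 0.5 log2 units. The groups differed in shape, which was not tested. These 4 bins held 16, 10, 32 and 36 of the 5-week females, 9, 12, 36 and 34 of the 12-week females, who showed no dip, and 17, 3, 12 and 35 of the 5-week males. They held 12, 10, 5 and 23 of the 12-week males, whose lowest bin was the next one up, from 10.5 to 11.0. Its probe set has the suffix that Affymetrix gives to probes shared by several transcripts, so signal from a relative cannot be told apart from its own.

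**Figure D5:**
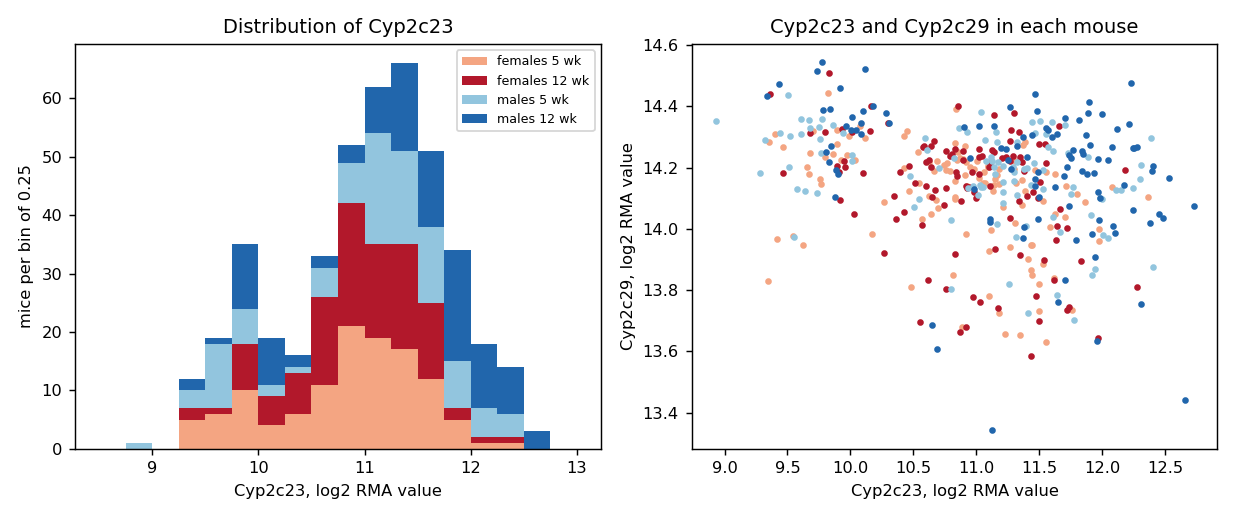
Left, number of mice (y axis) per bin of 0.25 log2 units of Cyp2c23 (x axis), stacked by group. Right, Cyp2c29 (y axis) against Cyp2c23 (x axis), in log2 RMA units, for each of 435 mice in the same colours. Summed over the 4 groups the histogram dips near 10.0 to 10.5, and the residual correlation of the pair was -0.37.

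Other genes of the P450 system were counted from lists chosen by function. The counts stand beside 22.1% of all genes called higher and 24.2% lower with age in females, and 22.3% and 24% in males. Of 10 partner proteins 8 were measured, with 4 higher and 1 lower at 12 weeks in females and 5 and 3 in males. Pgrmc2, a membrane haem-binding partner, rose by 0.50 ± 0.03 in females and 0.36 ± 0.04 in males. Ephx1, a microsomal epoxide hydrolase, rose by 0.23 ± 0.03 and 0.32 ± 0.03, and Fdx1, the electron donor of mitochondrial P450s, fell by 0.20 ± 0.02 and 0.12 ± 0.02. Of 13 genes of haem synthesis and breakdown 11 were measured, with 3 higher and 4 lower in females and 3 and 3 in males. Blvra, a biliverdin reductase, fell by 0.29 ± 0.02 and 0.25 ± 0.02, whereas Blvrb rose by 0.34 ± 0.03 and 0.41 ± 0.03.

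Of 21 regulators 17 were measured, with 6 higher and 5 lower at 12 weeks in females and 5 and 6 in males. Ahr, the Ah receptor, fell by 0.43 ± 0.05 in females and 0.45 ± 0.05 in males, and its partner Arnt by 0.18 ± 0.03 and 0.14 ± 0.03. Nfe2l2, a regulator of the oxidative stress response, rose by 0.19 ± 0.07 and 0.57 ± 0.07. Nr0b2, a repressor nuclear receptor, was 0.50 ± 0.08 higher in 12-week females and 0.15 ± 0.08, not called, in males. Srebf2, the regulator of sterol synthesis, fell by 0.32 ± 0.03 and 0.32 ± 0.04. These 11 calls of 17 in each sex stand beside 46.2% and 46.3% of all genes. Between the sexes at 12 weeks 0 regulators were called higher in males and 2 lower, beside 8.97% and 9.08% of all genes.

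Markers of other cells and of liver zones were also called with age, beside 46.2% of all genes in females and 46.3% in males. Their part in the P450 differences was not tested. With insulin at 12 weeks 13.4% of all genes were called positive and 14.1% negative. In 12-week males 8.97% were called higher than in females and 9.08% lower. In the interaction of age and sex 5.74% were positive and 2.82% negative. Of 10 pericentral markers 9 were measured, with 1 higher and 7 lower at 12 weeks in females and 2 and 5 in males, and with 6 lower and none higher with insulin at 12 weeks by limma. Gulo fell by 0.43 in females and 0.28 in males, and Lect2 by 0.39 and 0.37. In the other direction Slc1a2 rose by 0.18 in females and 0.44 in males, and Rhbg changed by -0.10 in females and 0.34 in males. Gulo, Rhbg and Oat, the last named after its values were seen, were called higher in males at 12 weeks (0.11, 0.23 and 0.10) and positive in the interaction of age and sex (0.14, 0.44 and 0.22), with none negative. Lect2 was lower in 12-week males (-0.19). The pericentral list had a mean level of 8.69 to 9.51 in 12-week females (median 9.18) and 9.01 to 9.54 in 5-week females (median 9.32). In males it was 8.67 to 9.70 at 12 weeks (median 9.24) and 8.71 to 9.67 at 5 weeks (median 9.26). Of 12 periportal markers 7 were measured, with 2 higher and 2 lower in females and 3 and 2 in males, and 5 lower with insulin at 12 weeks. Of 7 hepatocyte markers 1 was higher and 5 lower in each sex. Macrophage markers, 8 of 10 measured, were lower at 12 weeks for 6 in females and all 8 in males, and lower in males for all 8 at 12 weeks. The median of their mean level was 9.22 in 5-week and 9.05 in 12-week females, and 9.12 and 8.85 in males. Of 7 endothelial markers 1 was higher and 3 lower with age in females and 2 and 2 in males. Stellate cells gave 2 higher and 1 lower of 6 in females and 0 and 1 in males, cholangiocytes 1 and 3 of 4 and 0 and 3, lymphocytes 0 and 1 of 4 and 0 and 2, and neutrophils 0 and 2 of 3 and 0 and 3. The only erythroid marker, Alas2, was higher at 12 weeks and in males. Of the 2 acinar markers 1 was lower with age in each sex, and the adrenal list had no age call in females and 1 each way in males.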

How the data were processed

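RNA from 435 livers was hybridised to Affymetrix mouse arrays. The deposited values are log2 expression that the authors made with RMA, per the submitters' processing notes. The table held 15397 probe sets, of which 13516 had 1 gene symbol, 162 several and 1719 none. Single-symbol probe sets were kept and the highest mean taken per gene, leaving 13379 genes.

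Tests used limma 3.58.1 (R 4.3.3; lmFit and eBayes). A single fit of group and batch over all arrays gave the age, sex and interaction contrasts. Slopes used log2 traits scaled within group, with sex and batch; 1 mouse lacked a liver fat value. P-values were adjusted over all genes, called under 0.05. Residual correlations used 100000 permutations. The number of arrays limits the precision. The methods were tested on simulated data.

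The members and lists were chosen with earlier results of these data known. Named were members by role, up to 12 called per direction and group comparison, 6 per slope, 4 per slope difference, the 10 largest and 4 most negative correlations, and up to 6 genes per other list. Paralogues of the Cyp2c, Cyp2d, Cyp2j and Cyp4f clusters may share probe signal. Alternatives were no batch term, plate in place of batch, no dim genes (lowest 25% of means), mean of probe sets, quantile normalization again, leaving out the arrays nearer to the other sex, ranked traits and leaving out each large batch.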

Additional observations from a re-analysis of the deposited data

Results flagged for a closer look

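Of the age differences tested between sexes (males minus females), 11 members passed: Cyp2d13 (-0.29), Cyp2j6 (0.24), Cyp2d22 (0.22), Cyp2c50 (0.22), Cyp2j5 (-0.22), Cyp20a1 (0.17), Cyp4f16 (0.15), Cyp4f15 (0.14), Cyp4f13 (0.095), Cyp2a12 (0.082) and Cyp2e1 (0.041). Each passed an interaction test in limma. Cyp2j5 had opposite signs in the sexes.

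Slopes that differed between the ages in a tested interaction are given as 12 minus 5 weeks, per SD of the trait. On glucose the largest were Cyp4f14 (0.20), Cyp2c50 (0.12), Cyp1a1 (0.11) and Cyp2c29 (0.074). Without batch 2 the members called for glucose fell from 6 to 2, so some of these lost their call. On insulin they were Cyp2c50 (-0.13), Cyp2r1 (0.13), Cyp4f14 (-0.11) and Cyp4f15 (-0.098), and the Cyp2r1 call was lost without batch 2. On the liver fat fraction they were Cyp4f14 (-0.20), Cyp4f15 (-0.11), Cyp2c50 (-0.10) and Cyp2j9 (-0.083). On total cholesterol they were Cyp2r1 (0.14), Cyp2d13 (-0.13), Cyp2d12 (-0.097) and Cyp4v3 (-0.089). The Cyp2j9 call lay close to the threshold (adjusted p = 0.0498, limma).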

How the results depend on the processing

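Counts of called members in the 4 age and sex comparisons stayed within 1.5 times the reported counts under all alternatives run. Most slope counts at 5 weeks were small and moved: on glucose (reported as 5) to 9 with no batch term, 2 with plate, 3 with ranked traits, 3 without batch 3 and 1 without batch 4; on liver fat (2) to 4 with no batch term, 0 without batch 3 (7 at an unadjusted p under 0.05, limma) and 1 without batch 4; on insulin (2) to 1 when quantile normalized again, 1 without batch 1, 0 without batch 3 (8 unadjusted, limma) and 1 without batch 4. Normalizing again took the liver fat calls at 12 weeks from 13 to 8 and those of its slope difference from 11 to 7, and the cholesterol slope difference from 2 positive and 8 negative to 3 and 6. Without batch 1 the interaction between age and sex gave 5 calls in place of 11. Without batch 2 the 12-week counts fell to 2 (glucose), 7 (insulin), 5 (cholesterol) and 8 (liver fat), and the slope differences to 2, 3, 5 and 6; without batch 3 the cholesterol slope difference gave 6. Within batches 1 to 4, 58, 108, 63 and 68 pairs of members were called in place of 204. Fewer mice enter the fits without a batch or within a batch. The fits with no batch term, plate, ranked traits or renewed normalization used the same mice as reported. The cause of these shifts was otherwise not tested. Of single member calls, 196 gene and setting combinations lost their call, 154 of them slopes, and none of the called values changed sign with a call. The insulin slope of Cyp2f2 at 12 weeks was negative and not called as reported. When normalized again it changed sign and was called, at 0.023 (adjusted p = 0.0077, limma). This was the only change of sign in which either value was called. Single mice were the replicates, with over 100 in each group, so whole batches rather than single mice were left out. No paired analysis was possible because the numbers in the labels name mice and pair none across groups. Detection of the 6 dim members and saturation of the 8 most abundant were not assessed.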
